A study of Mus musculus with 56 samples.

Results

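To determine which kidney transcripts differed between the dark and the light phase when the time since feeding was equal, 4 mice under daytime-restricted feeding (DRF) killed at zeitgeber time 16 (ZT16) were compared with 4 mice under nighttime-restricted feeding (NRF) killed at ZT4. Zeitgeber time counts hours from lights on, so ZT16 lies in the dark phase and ZT4 in the light phase. With food taken as given in the light phase for DRF and in the dark phase for NRF, both groups were 4 h past the end of their food window, early in the daily fast. The 8 samples were chosen by their labels alone, from 56 in all that fall into 14 groups of 4. All 8 were kidneys of 9-week-old female C57BL/6J mice, kept in groups under 12 h of light and 12 h of darkness, with free access to chow for 7 days and then DRF or NRF for 7 days. Poly(A) RNA was sequenced as 100-base paired reads on a BGISEQ-500. The 2 groups therefore differed in both clock time and regimen, and these cannot be told apart from the 8 samples. For that reason the early-meal groups, NRF ZT16 and DRF ZT4, which have the same clock times with the regimens exchanged, are set beside them where they help.

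The kidney carries its own circadian clock, in which CLOCK and BMAL1 (gene Arntl) switch on the Per and Cry genes, whose products repress CLOCK and BMAL1, while REV-ERB and ROR proteins (Nr1d and Ror genes) repress and activate Arntl. Food intake, body temperature and adrenal glucocorticoids all carry time signals to this clock. Renal sodium, water and phosphate handling are known to follow daily rhythms.

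Levels are given in rescaled TPM, transcript levels per gene length and sequencing depth, recovered from the deposited values and scaled by a median-of-ratios factor. Differences are on the log2(TPM + 1) scale, DRF ZT16 minus NRF ZT4, with the standard error (SE) of a limma fit over all 56 samples. A gene is called where the Benjamini-Hochberg adjusted p was under 0.05 over 12573 genes tested. Sample values follow the order of replicates 1 to 4. Gene positions are those of GRCm38. The recovered depth was 22.9 to 23.9 M reads per library in DRF ZT16 and 22.4 to 23.7 M in NRF ZT4. Across genes, replicates of these groups correlated with r of at least 0.973. NRF ZT4 had 2 libraries that stood apart in tissue markers. Replicate 1 was low in inner medulla genes. Slc14a2, the urea transporter of that zone, was at 0.244 TPM against 66.2 to 91.5 TPM in the other NRF ZT4 mice and 136 to 239 TPM in DRF ZT16. Slc6a12 and Upk3a were also near 0 there, at 0.0427 and 0.119 TPM. Akr1b3 and Aqp4, at 13.8 and 28.1 TPM, were close to the lowest DRF ZT16 values of 15.6 and 34.3 TPM. Replicate 4 carried adipose genes, with a sum of 908 TPM over 8 markers against 23.2 to 74.4 TPM in the other NRF ZT4 mice and 34.4 to 98.1 TPM in DRF ZT16. It was also high in the inner medulla markers Akr1b3 and Upk3a, at 180 and 98.8 TPM, and NRF ZT4 replicate 3 was at 84.2 and 18.2 TPM. DRF ZT16 replicate 1 stood apart in its group in the same markers. It was at 92.9 and 34.7 TPM against 15.6 to 18.2 and 2.86 to 6.44 TPM in the others. This library was kept where the 2 NRF ZT4 libraries were left out. None of the 7 proximal tubule markers tested was called. Of 9 adrenal markers only 4 had a recovered level, and among these only Star exceeded 1 TPM. In bulk kidney, fewer cells of a type and less RNA per cell cannot be told apart.

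The comparison called 3951 genes, which is 31.4% of those tested. Of these, 1846 (14.7%) were higher and 2105 (16.7%) lower in DRF ZT16. Most differences were small: 620 called genes reached 1.5-fold (304 higher, 316 lower) and 128 reached 2-fold. The 95% interval of the difference lay within 1.5-fold in 78.4% of genes. The groups of 4 did not overlap in 3629 genes (28.9%), of which 2811 were called. The balance of directions rests on scaling. Higher genes made up 46.7% of calls here, 18.2% in TPM without rescaling, 51.6% in the values as deposited and 52.6% with voom weights, and the median of all genes was 0.01 with and -0.09 without rescaling. Without the 2 NRF ZT4 libraries that stood apart, 3167 genes were called. Labels give each sample as a separate sample. The tests take the spread between mice within groups from all 56 samples, and a fit of the 8 samples alone called 2502 genes.

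Among 13 leading rises were 3 genes of the clock (Per2, Cry1 and Nfil3) and 4 glucocorticoid-responsive genes (Zbtb16, Fkbp5, Tsc22d3 and Sgk1). The 14 leading falls included Nr1d1 and 2 genes of the interferon response list (Irf7 and Igtp). These genes were chosen for their size in this comparison among genes that averaged at least 10 TPM over the 8 samples, and for groups that do not overlap, so their separation is a description.

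**Figure D1:**
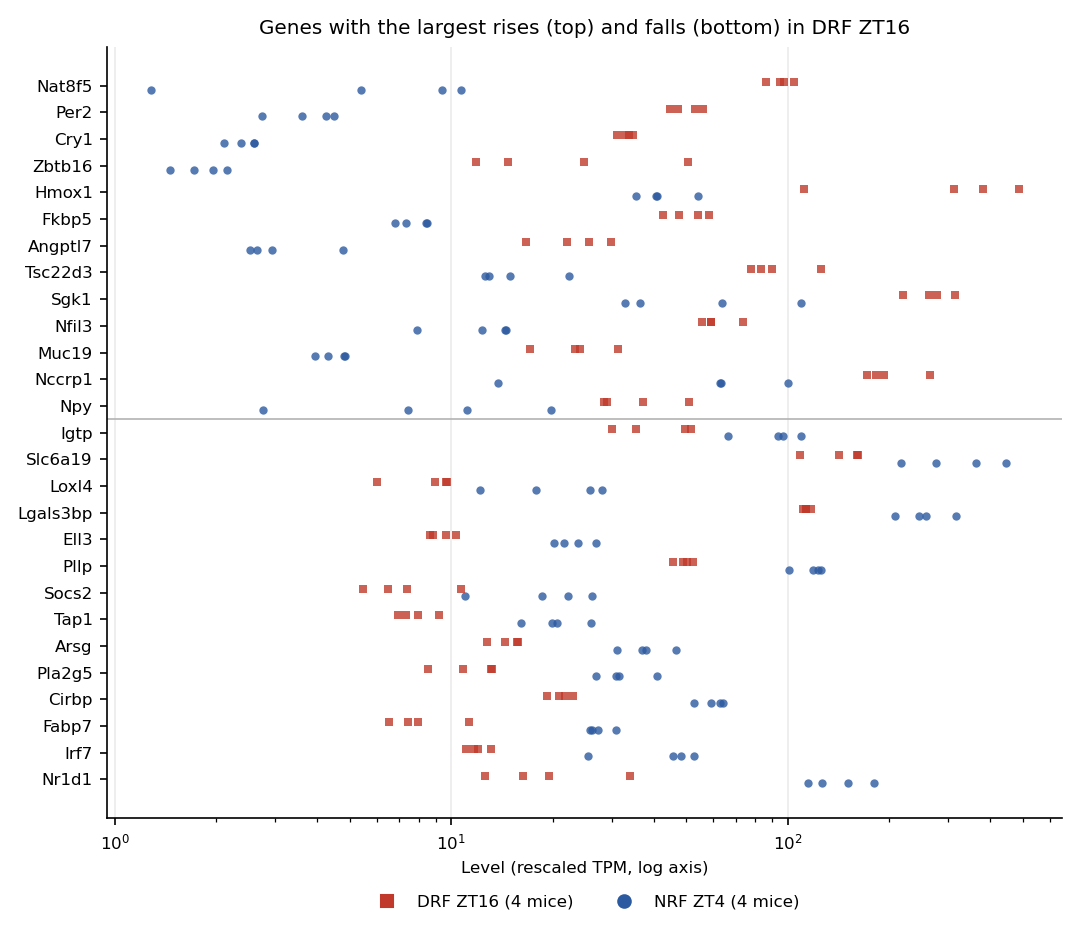
Levels of 13 genes with large rises (top) and the 14 with the largest falls (bottom) among genes that averaged at least 10 TPM over the 8 samples, one point per mouse, in rescaled TPM on a log axis. Squares are the 4 DRF ZT16 mice and circles the 4 NRF ZT4 mice; Nat8f5 ran from 1.28 to 10.7 TPM at NRF ZT4 to 86.0 to 104 TPM at DRF ZT16, and Nr1d1 from 115 to 181 to 12.6 to 34.0 TPM.

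Clock genes were among the largest differences. Of 11 clock repressors tested, 7 rose and 1 fell, with a median difference of 0.54 against 0.01 over all genes, of which 14.7% rose and 16.7% fell. Of 10 activators and loop genes, 4 rose and 2 fell (median 0.33), and of 11 clock output genes 7 rose and none fell (median 0.72). These medians were positive under each scaling. Without rescaling, 5 repressors rose and 2 fell, and 3 activators and loop genes rose and 2 fell.

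Per2 (chr1:91415982-91459324), a repressor of CLOCK and BMAL1 that is also induced by glucocorticoids, was at 56.2, 44.5, 52.8 and 47.1 TPM in DRF ZT16 and at 2.73, 3.61, 4.25 and 4.48 TPM in NRF ZT4. The lowest DRF ZT16 mouse lay far above the highest NRF ZT4 mouse, and the means differed 13.3-fold (log2 difference 3.43 ± 0.17, adjusted p = 1.76e-19). Over all 14 groups, NRF ZT4 had the lowest mean Per2 of the day, 3.77 ± 0.782 TPM, and DRF ZT16 the fourth highest. Cry1 (chr10:85131700-85185064), the repressor that acts latest in the cycle, was at 31.1, 32.9, 33.6 and 34.8 TPM in DRF ZT16 and 2.38, 2.60, 2.12 and 2.60 TPM in NRF ZT4. Spread within each group was small beside this gap (13.7-fold, log2 difference 3.32 ± 0.20, adjusted p = 1.33e-16), and the 2 groups held the second-highest and the lowest of the 14 group means. The highest mean was that of NRF ZT16, 34.6 ± 2.94 TPM, within 1 SD of DRF ZT16 at 33.1 ± 1.56 TPM. Per1, the Per gene with the fastest response to hormones and light, was at 42.9, 23.8, 30.9 and 24.2 TPM in DRF ZT16 and 5.64, 5.25, 9.64 and 20.9 TPM in NRF ZT4 (log2 difference 1.63 ± 0.28, adjusted p = 1.28e-05). NRF ZT4 replicate 4 came close to the DRF ZT16 mice without reaching them. Per3 rose from a range of 4.12 to 9.88 to 15.9 to 21.7 TPM and Cry2 from 8.63 to 11.9 to 18.6 to 21.1 TPM, with no overlap in either (log2 difference 1.26 ± 0.20, adjusted p = 5.11e-06 for Per3 and log2 difference 0.81 ± 0.12, adjusted p = 1.70e-06 for Cry2). Csnk1d, a kinase that marks PER proteins for degradation, was called higher by 0.21 ± 0.04, but not without rescaling (0.10, adjusted p = 0.274). Ciart, another repressor of CLOCK and BMAL1, rose by 0.54 ± 0.20 at levels of 3.49 to 5.56 against 2.16 to 2.76 TPM, a call that was lost without rescaling (adjusted p = 0.083), with voom weights (adjusted p = 0.141), and without DRF ZT16 replicate 1 or NRF ZT4 replicate 2 or 3 (adjusted p = 0.125, 0.0665 and 0.0568). Fbxl21, a ubiquitin ligase subunit that acts on CRY proteins, was the repressor-list member that fell, from 2.92 to 5.4 to 1.14 to 1.76 TPM (log2 difference -0.99 ± 0.14, adjusted p = 7.23e-07). Csnk1e, a kinase of the same family as Csnk1d, differed by -0.04 ± 0.12 and Timeless by 0.01 ± 0.11, and neither was called.

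The E-box (CACGTG, read the same on both strands) is the element to which CLOCK and BMAL1 bind, and it was looked for in RefSeq windows (GRCm38.p6) that run from 250 bases before to 50 after each gene's start. Here and for the motifs below, the share over all promoters counts windows. The share of a list counts genes with a match in any of their windows, so these shares are not on the same footing. The E-box was present in 2349 of 32851 windows (7.15%), and in 3 of the 8 clock repressors that had a window, including Cry1 and Per1. The stretches that hold it are shown 5′ to 3′ on the gene's strand, with the E-box in capitals; none of the other motifs searched overlaps it there. The Cry1 stretch is chr10:85185069-85185154, minus strand, with the element 60 to 55 bases before the start, and the Per1 stretch is chr11:69098743-69098828, plus strand, with it 166 to 161 bases before the start.
Cry1: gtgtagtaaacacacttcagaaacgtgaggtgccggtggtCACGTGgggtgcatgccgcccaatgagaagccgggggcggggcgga
Per1: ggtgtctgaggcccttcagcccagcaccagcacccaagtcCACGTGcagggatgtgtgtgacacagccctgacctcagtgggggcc

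In the loop of nuclear receptors, Nr1d1 (chr11:98767932-98775333), which encodes the repressor REV-ERB alpha, fell. Its levels were 34.0, 19.5, 16.4 and 12.6 TPM in DRF ZT16 and 115, 151, 181 and 127 TPM in NRF ZT4, a 6.95-fold gap with no overlap (log2 difference -2.81 ± 0.25, adjusted p = 9.77e-12). Both the level and the ratio of Nr1d1 rest on an assumed gene length, as do those of Dbp and Kap. With this length multiplied by 0.9 or 1.1, no call of these 3 genes changed. Nfil3 (chr13:52967209-52981073), a repressor at D-box elements, was at 55.7, 59.0, 59.3 and 73.6 TPM against 14.6, 12.4, 7.91 and 14.4 TPM, again with no overlap (5.02-fold, log2 difference 2.27 ± 0.19, adjusted p = 3.22e-12). Npas2, a partner of BMAL1 that can stand in for CLOCK, fell from 15.4, 11.7, 11.4 and 9.02 TPM in NRF ZT4 to 3.22, 5.03, 4.70 and 3.77 TPM in DRF ZT16 (log2 difference -1.31 ± 0.17, adjusted p = 8.70e-08). Rora and Clock were called higher by 0.37 ± 0.08 and 0.25 ± 0.09. The Clock call was lost without rescaling (0.14, adjusted p = 0.377) and with the exclusion of DRF ZT16 replicate 1, 2 or 4 or of NRF ZT4 replicate 2, 3 or 4 (adjusted p = 0.0573 to 0.188). Arntl itself was not called, at 10.2, 13.1, 12.9 and 14.2 TPM in DRF ZT16 and 13.9, 9.48, 7.84 and 7.89 TPM in NRF ZT4 (0.36 ± 0.17). Without NRF ZT4 replicate 1 it was called higher (0.53, adjusted p = 0.0187), as it was without replicate 1 of every group (0.62, adjusted p = 0.00153). Nr1d2 differed by -0.10 ± 0.14 (95% interval -0.38 to 0.18), so a change of the size of that in its relative Nr1d1 lies outside the interval.

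The REV-ERB and ROR element was searched as TAGGTCA on both strands and was present in 856 of 32851 windows (2.61%). It was found in 2 of the 8 activator and loop genes with a window. Nfil3 held 1 match, 12 to 6 bases before its start, shown here in capitals on the gene's strand (minus, chr13:52981040-52981091), where it reads as the reverse complement of the letters above.
Nfil3: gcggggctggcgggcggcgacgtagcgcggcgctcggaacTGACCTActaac

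Lonrf3, a ring finger gene of the clock output list, was at 55.9, 57.4, 61.4 and 60.9 TPM in DRF ZT16 and 19.3, 15.4, 12.9 and 17.8 TPM in NRF ZT4 (3.61-fold, log2 difference 1.80 ± 0.13, adjusted p = 2.57e-14). Usp2, a deubiquitinase of the clock and of the sodium channel pathway, was at 157, 115, 143 and 125 TPM against 31.4, 56.3, 47.0 and 52.7 TPM (log2 difference 1.53 ± 0.15, adjusted p = 9.24e-11). Wee1, a kinase that restrains entry into mitosis, rose 2.47-fold and Nampt, the rate-limiting enzyme of NAD salvage, 1.93-fold, from 108 to 117 TPM to 210.1 to 225 TPM (log2 difference 0.95 ± 0.09, adjusted p = 2.62e-11). The D-box activators split. Tef rose 1.87-fold and Hlf 1.40-fold, whereas Dbp was at 21.0, 16.8, 15.4 and 10.8 TPM in DRF ZT16 and 7.84, 32.8, 49.3 and 25.6 TPM in NRF ZT4 and was not called (-0.60 ± 0.33). NRF ZT4 replicate 1 held Dbp below every DRF ZT16 mouse while the other 3 lay above, and without that library Dbp was lower in DRF ZT16 (-1.11, adjusted p = 0.00376). The same library also nearly lacked the inner medulla gene Slc14a2. In it, Npas2 and Arntl were the highest and Per2, Per3, Cry2, Nr1d1 and Tef the lowest of the 4 NRF ZT4 mice. Whether its make-up has a part in this was not tested. Alas1, the first enzyme of haem synthesis, rose 1.65-fold (log2 difference 0.72 ± 0.18, adjusted p = 0.00222), and Por, Gsta3 and Leo1 were not called.

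**Figure D2:**
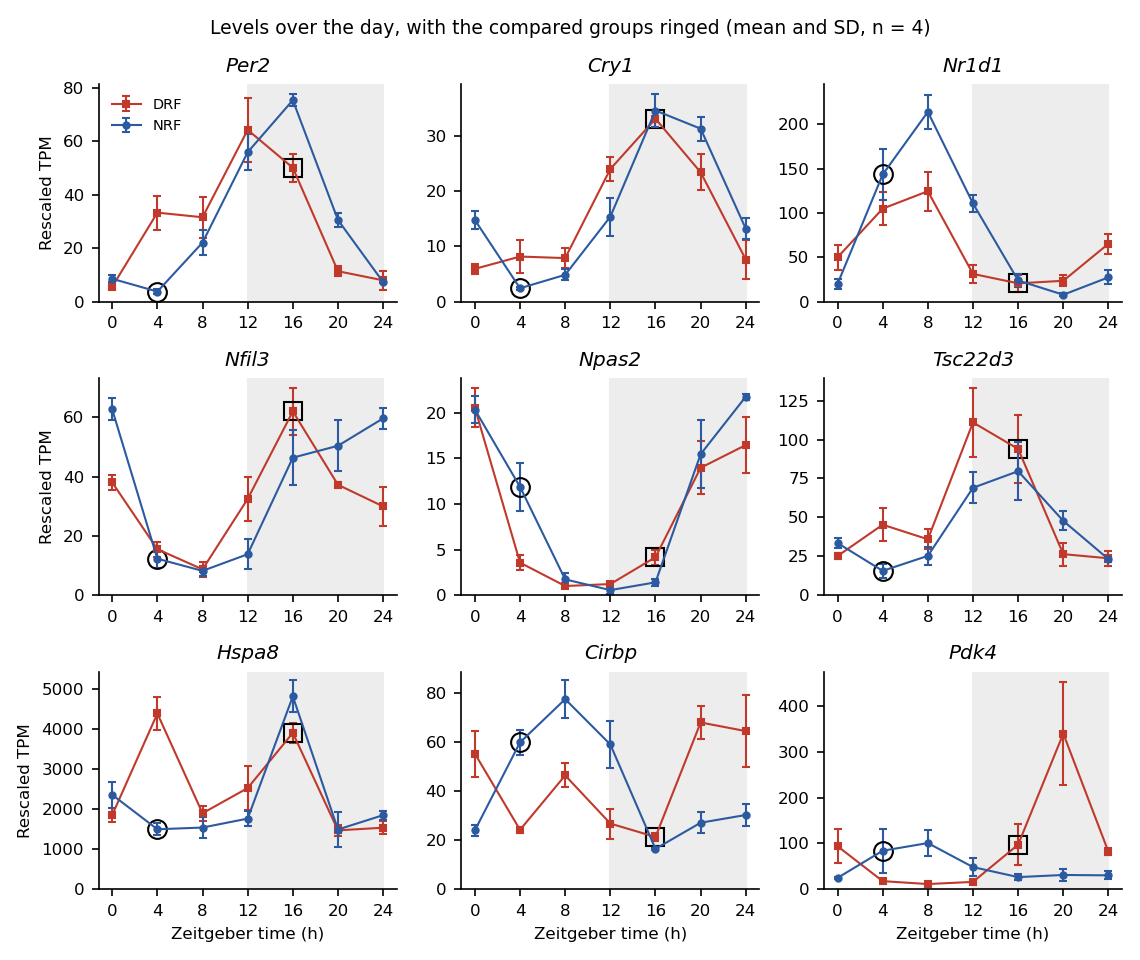
Mean rescaled TPM and SD (n = 4 mice) of 9 genes at 7 zeitgeber times under DRF (red squares) and NRF (blue circles), with the dark phase in grey and the compared groups, DRF ZT16 and NRF ZT4, ringed in black. Per2, Cry1 and Tsc22d3 were at their lowest group mean at NRF ZT4, while Pdk4 had overlapping values in the ringed groups (means of 97.1 and 83.7 TPM) and its highest mean at DRF ZT20 (339.5 TPM).

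Adrenal glucocorticoids bind the glucocorticoid receptor, which then acts on DNA, and their level in blood is known to rise before the active phase. Of 17 listed targets tested, 7 rose and none fell (41.2% called against 31.4% of all genes, median 0.22). Without rescaling 7 rose and 1 fell (median 0.11), and without the 2 NRF ZT4 libraries that stood apart 7 rose and 1 fell (median 0.36). Of the 4 largest rises, Zbtb16 (chr9:48654297-48836222), a transcription factor gene, was at 50.5, 11.8, 24.8 and 14.8 TPM in DRF ZT16 and 1.72, 1.46, 1.96 and 2.16 TPM in NRF ZT4. All DRF ZT16 mice were above all NRF ZT4 mice, but they ranged widely among themselves (log2 difference 3.02 ± 0.46, adjusted p = 1.71e-06). Fkbp5 (chr17:28399094-28517527), which encodes a chaperone that restrains the receptor, was at 58.2, 42.5, 47.4 and 54.1 TPM against 8.43, 6.79, 8.45 and 7.34 TPM (6.52-fold, log2 difference 2.55 ± 0.29, adjusted p = 3.54e-09). DRF ZT16 had the highest and NRF ZT4 the lowest of the 14 group means. Tsc22d3 (chrX:140539528-140600659), also known as GILZ, an anti-inflammatory mediator of these hormones, was at 126, 77.8, 83.1 and 89.4 TPM against 12.6, 13.0, 14.9 and 22.4 TPM (5.97-fold, log2 difference 2.52 ± 0.19, adjusted p = 4.88e-14). Sgk1 (chr10:21882184-21999903), a kinase that keeps sodium channels at the surface of distal tubule cells, was at 314, 220.3, 278 and 263 TPM in DRF ZT16 and 36.5, 32.8, 63.7 and 109.7 TPM in NRF ZT4. NRF ZT4 varied more than DRF ZT16, with replicate 4 the highest, yet the groups did not overlap (4.43-fold, log2 difference 2.29 ± 0.33, adjusted p = 7.78e-07). Klf15 and Dusp1, 2 more genes known to respond to these hormones, rose by 0.91 ± 0.19 and 0.87 ± 0.26. Pck1, the first dedicated enzyme of gluconeogenesis, was called higher by 0.66 ± 0.23, but the groups overlapped (6225, 6572, 6112 and 6744 TPM against 7232, 5439, 1587 and 4288 TPM). The call was lost without NRF ZT4 replicate 3, where the difference was 0.21 (adjusted p = 0.376), and without DRF ZT16 replicate 4 (0.64, adjusted p = 0.0532).

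The glucocorticoid element, searched as AGAACA and TGTTCT spaced by 3 bases (the same on both strands), was present in only 3 of 32851 windows (0.01%), and 1 of the 15 listed targets with a window held it. That gene was Sgk1, with the match 189 to 175 bases before the RefSeq start, in capitals in the stretch chr10:21993661-21993755 on the plus strand, and with no other searched motif overlapping it.
Sgk1: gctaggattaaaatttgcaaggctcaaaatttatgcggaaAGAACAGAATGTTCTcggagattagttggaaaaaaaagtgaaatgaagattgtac

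Chaperone genes were higher at DRF ZT16 in both the cytosol and the endoplasmic reticulum (ER). Of 27 heat shock genes, 20 rose and none fell (median 0.47), and of 32 ER chaperone and unfolded protein response genes, 26 rose and none fell (median 0.38), against 14.7% of all genes higher. Without rescaling, 18 members of each list rose and none fell. Hspa8, the constitutive HSP70 of the cytosol, was at 3696, 3692, 4220.2 and 3969 TPM in DRF ZT16 and 1360.2, 1691, 1495 and 1419 TPM in NRF ZT4 (2.61-fold, log2 difference 1.39 ± 0.14, adjusted p = 1.02e-10). The ranges within groups were narrow and far apart. Chordc1, a co-chaperone of HSP90, was at 47.5, 41.5, 39.6 and 43.6 TPM against 16.5, 14.4, 13.8 and 16.3 TPM (2.83-fold, log2 difference 1.44 ± 0.10, adjusted p = 1.72e-15). Hspb1, the small heat shock protein HSP27, was at 172, 138, 127 and 103 TPM against 22.2, 44.3, 65.1 and 81.7 TPM (log2 difference 1.45 ± 0.38, adjusted p = 0.00268). Its lowest value was in NRF ZT4 replicate 1, and without that library the difference was 1.09 (adjusted p = 0.0287). In the ER, Hspa5 (BiP), the main HSP70 of that compartment, was at 922, 771, 780.1 and 802 TPM in DRF ZT16 and 245, 369, 333 and 291 TPM in NRF ZT4 (2.65-fold, log2 difference 1.41 ± 0.15, adjusted p = 9.89e-10). Creld2 and Manf, secreted or luminal products of the unfolded protein response, rose 3.06-fold and 2.76-fold, each with no overlap (log2 difference 1.59 ± 0.15, adjusted p = 2.13e-11 and log2 difference 1.45 ± 0.18, adjusted p = 1.85e-08). Of the 5 genes in the list of cold-inducible RNA-binding genes, 2 fell and none rose (40% called against 31.4% of all genes, median -0.11). The other members, Rbm3, Rbm4 and Rbm4b, were not called. Cirbp (chr10:80165985-80172786), the cold-inducible RNA-binding protein, was at 23.0, 21.8, 20.9 and 19.2 TPM against 59.0, 64.1, 63.1 and 52.8 TPM (2.81-fold lower in DRF ZT16, log2 difference -1.45 ± 0.14, adjusted p = 3.65e-11). Srsf5, a splicing factor gene, fell from 132 to 151 to 91.9 to 101 TPM (log2 difference -0.54 ± 0.06, adjusted p = 3.01e-09). With voom weights, 2 of the 5 were called higher and 2 lower.

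The heat shock element, searched on both strands as GAA, TTC and GAA spaced by 2 bases each, was present in 198 of 32851 windows (0.6%) and in 5 of the 20 heat shock genes with a window. Chordc1 held 3 overlapping matches from 4 bases before to 19 after its start, which are in capitals in the stretch chr9:18292260-18292289 on the plus strand.
Chordc1: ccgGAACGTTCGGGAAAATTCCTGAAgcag

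To ask whether genes that follow food differed at equal time since food, food-state genes were defined in 16 other mice killed 8 h into the meal or the fast. These were NRF ZT8 and DRF ZT20 (fasted) and NRF ZT20 and DRF ZT8 (fed), in which regimen and clock time are balanced and which share no library with the early-fast groups. There, 281 genes (2.23%) were called at 1.5-fold or more between fasted and fed. Each side averages 2 groups, so a gene that is high in a single group can be called. Irf7 was at 88.5 TPM in NRF ZT8 but 12.7 TPM in DRF ZT20, both fasted. Before the fold minimum, 26 of 30 interferon response genes were called between fasted and fed, and 25 between dark and light in these mice. Over all 12573 genes tested, these counts were 3875 and 3003. In the early-fast comparison, 105 of these 281 were called (37.4%), near the 31.4% of all genes tested. Most of the called genes took the opposite sign. Of 158 genes higher when fasted, 64 were called, 7 higher and 57 lower in DRF ZT16 (median -0.42). Of 123 genes lower when fasted, 41 were called, 37 higher and 4 lower (median 0.21). The same held among the 204 food-state genes that were not also clock-time genes, as defined below, of which 70 were called (34.3%, again near 31.4%). Such genes can still have been called between dark and light at under 1.5-fold. Among them, 28 of 34 called genes that are higher when fasted were lower in DRF ZT16, and 32 of 36 that are lower when fasted were higher. These directions held under each scaling and without the 2 NRF ZT4 libraries that stood apart.

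Clock-time genes were defined in the same 16 mice from dark (ZT20) minus light (ZT8), which called 287 genes (2.28%) at 1.5-fold or more. In the early-fast comparison 125 of them were called (43.6% against 31.4% of all genes), 89 in the same direction. Of 148 genes higher in the dark, 33 rose and 16 fell in DRF ZT16 (median 0.13), and of 139 lower in the dark, 20 rose and 56 fell (median -0.45). Among the 210 that were not also food-state genes, 90 were called (42.9%) and 56 took the same direction. These can still have been called between fasted and fed at under 1.5-fold.

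**Figure D3:**
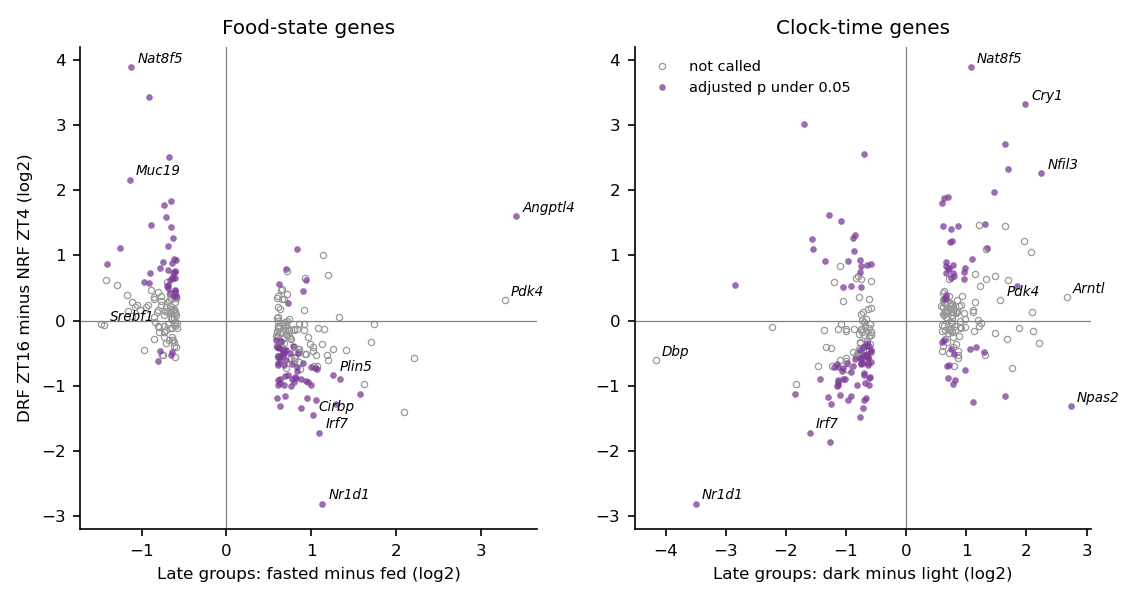
Difference between DRF ZT16 and NRF ZT4 (vertical, log2) of the 281 food-state genes against their fasted minus fed difference (left) and of the 287 clock-time genes against their dark minus light difference (right), both from 16 other mice; filled points were called. Of the 158 genes to the right in the left panel 57 were called lower and 7 higher, and of the 139 to the left in the right panel 56 were called lower and 20 higher.

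Of 4 fasting genes described whatever their result, 2 were not called. Pdk4, the kinase that shuts down pyruvate oxidation in fasting, was at 77.0, 86.5, 163 and 61.6 TPM in DRF ZT16 and 50.1, 36.3, 111 and 138 TPM in NRF ZT4, and these ranges overlapped (0.31 ± 0.32, 95% interval -0.34 to 0.96). It varied several-fold among the NRF ZT4 mice, and at this spread the interval reaches nearly 2-fold. Cpt1a, which admits fatty acids to mitochondria, was measured more tightly and differed by -0.05 ± 0.09 (interval -0.23 to 0.13). Angptl4, a fasting-induced inhibitor of lipoprotein lipase, was called higher (log2 difference 1.60 ± 0.42, adjusted p = 0.00262), but its ranges of 69.2 to 125 and 12.2 to 78.2 TPM overlapped, and in a fit of the 8 samples alone the adjusted p was 0.0841. Cyp4a14, a fatty acid hydroxylase and target of PPARA, the fatty acid sensor, rose from 959.9, 951, 1440 and 1007 TPM to 1527, 1746, 2518 and 1755 TPM with no overlap (log2 difference 0.79 ± 0.17, adjusted p = 4.94e-04). It has close relatives among the Cyp4a genes, so its share of reads is uncertain. Its mean was higher under DRF than under NRF at each time sampled. Cyp4b1, a related hydroxylase, rose by 1.33 ± 0.41, and the call was lost without NRF ZT4 replicates 1 and 4 (1.03, adjusted p = 0.136). Plin5, a lipid droplet protein, fell by 0.84 ± 0.18. In all, 8 of 31 fatty acid oxidation and PPARA genes rose and 2 fell (median 0.08, -0.03 without rescaling). The 32.3% called was close to the 31.4% of all genes, and without rescaling 4 rose and 2 fell.

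Of 34 lipid synthesis genes, which insulin and cholesterol regulate, 5 rose and 2 fell (median 0.06, -0.04 without rescaling). The share called, 20.6%, was below the 31.4% of all genes. Srebf1, the lipogenic transcription factor, differed by -0.07 ± 0.15 (interval -0.37 to 0.22) and was not called. Msmo1 and Hmgcs1, enzymes of cholesterol synthesis, rose by 0.44 ± 0.13 and 0.42 ± 0.14. Both calls were lost without rescaling (adjusted p = 0.0645 for Msmo1 and 0.0886 for Hmgcs1), without DRF ZT16 replicate 1 (0.0571 and 0.0541) or replicate 4 (0.0513 and 0.0511), and without the 2 NRF ZT4 libraries that stood apart (0.112 and 0.0553). The Msmo1 call was also lost without NRF ZT4 replicate 4 (adjusted p = 0.058) and the Hmgcs1 call without NRF ZT4 replicate 3 (adjusted p = 0.0501). Srebf2, the regulator of cholesterol genes, fell by 0.35 ± 0.07 and Dhcr7, the last enzyme of the pathway, by 0.29 ± 0.10. The Dhcr7 call was lost without DRF ZT16 replicate 3 or NRF ZT4 replicate 2 or 3 (adjusted p = 0.0713, 0.0757 and 0.0806).

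Among the genes of glucose and nitrogen metabolism, G6pc, which releases glucose from glucose 6-phosphate, was at 2309.5, 2264, 3062 and 2802 TPM in DRF ZT16 and 872, 751, 552 and 629 TPM in NRF ZT4 (3.72-fold, log2 difference 1.90 ± 0.22, adjusted p = 9.34e-09). DRF ZT16 had the highest of the 14 group means, at 2609 TPM against 1482 TPM in the next group, NRF ZT24. Slc37a4, which carries glucose 6-phosphate to G6pc, rose 1.72-fold (log2 difference 0.78 ± 0.15, adjusted p = 5.81e-05). Glul, the glutamine synthetase, was at 1709, 1678, 2185 and 2027 TPM against 454, 643, 528 and 511 TPM (3.56-fold, log2 difference 1.83 ± 0.16, adjusted p = 1.42e-11), and DRF ZT16 again had the highest group mean of the day. Gpt2, a mitochondrial alanine aminotransferase, fell from 34.5 to 44.9 to 20.1 to 26.2 TPM (log2 difference -0.72 ± 0.14, adjusted p = 8.94e-05). In all, 4 of 20 gluconeogenesis and sugar transport genes rose and 1 fell, and of 20 acid-base and ammonia genes 2 rose and 3 fell, so that 25% of each list was called against 31.4% of all genes. Without rescaling 3 genes of the first list rose and 4 fell, and 2 of the second rose and 6 fell. Foxo3, a transcription factor restrained by insulin, rose by 0.67 ± 0.12. Among 23 insulin and FOXO-responsive genes 7 rose and 1, Egr1, fell (34.8% called, median 0.25).

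The single largest rise was that of Nat8f5 (chr6:85817218-85820972), a member of the Nat8 family of acetyltransferases, which are encoded side by side on chromosome 6. Its levels were 86.0, 97.7, 94.9 and 104 TPM in DRF ZT16 and 9.37, 10.7, 1.28 and 5.4 TPM in NRF ZT4 (14.3-fold, log2 difference 3.89 ± 0.38, adjusted p = 6.83e-11). NRF ZT4 was the lowest of the 14 group means and DRF ZT16 the second highest. Nat8 and Nat8f1 rose 2.33-fold and 1.46-fold, the second a call that was lost without DRF ZT16 replicate 3 or 4 or NRF ZT4 replicate 3 or 4 (adjusted p = 0.0565 to 0.107), and Nat8f4 fell, from 19.6 to 23.5 to 13.3 to 15.4 TPM (log2 difference -0.52 ± 0.11, adjusted p = 3.13e-04). The members resemble each other in sequence, so how reads were divided among them is uncertain. Hmox1 (chr8:75093621-75100589), the stress-induced haem oxygenase, was at 112, 312, 485 and 379 TPM against 40.9, 35.3, 54.3 and 40.5 TPM. DRF ZT16 mice differed widely but lay above all NRF ZT4 mice (7.53-fold, log2 difference 2.72 ± 0.34, adjusted p = 4.57e-08). Of 23 genes of the NRF2 and glutathione list, to which Hmox1 belongs, 6 rose and 1 fell (30.4% called against 31.4% of all genes). Osgin1 rose by 0.66 ± 0.15. The list's median was 0.08, and -0.03 without rescaling.

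Among the remaining leading rises, Angptl7 (chr4:148495183-148500460), a secreted angiopoietin-like protein, was at 16.6, 22.0, 29.8 and 25.7 TPM in DRF ZT16 and 2.66, 4.78, 2.52 and 2.93 TPM in NRF ZT4 (7.31-fold, log2 difference 2.54 ± 0.27, adjusted p = 8.28e-10). Muc19 (chr15:91838326-91934555), a gel-forming mucin gene, was at 24.2, 23.2, 31.4 and 17.1 TPM against 4.30, 3.93, 4.80 and 4.83 TPM (5.37-fold, log2 difference 2.17 ± 0.25, adjusted p = 4.33e-09). In both genes each DRF ZT16 mouse was several-fold above each NRF ZT4 mouse. Nccrp1 (chr7:28543596-28547254) was at 265, 194, 172 and 183 TPM against 13.8, 100.4, 63.3 and 62.7 TPM (log2 difference 2.02 ± 0.66, adjusted p = 0.0171), and Npy (chr6:49822710-49829507), the gene of neuropeptide Y, at 50.9, 37.2, 28.3 and 29.0 TPM against 2.76, 7.42, 19.8 and 11.2 TPM (log2 difference 1.94 ± 0.73, adjusted p = 0.0366). The lowest value of both was in NRF ZT4 replicate 1, the library with almost no Slc14a2. Without that library neither gene was called (Nccrp1 1.43, adjusted p = 0.107 and Npy 1.5, adjusted p = 0.136). The Npy call was also lost without DRF ZT16 replicate 1, 2 or 4 or NRF ZT4 replicate 2 (adjusted p = 0.051 to 0.0905).

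Falls outside the clock and interferon genes had mixed functions. Fabp7 (chr10:57784881-57788450), a fatty acid-binding protein, was at 7.97, 7.42, 6.53 and 11.3 TPM in DRF ZT16 and 27.3, 30.9, 26.3 and 25.8 TPM in NRF ZT4 (3.32-fold lower, log2 difference -1.64 ± 0.19, adjusted p = 5.26e-09). NRF ZT4 had the highest of its 14 group means. Pla2g5 (chr4:138799244-138863482), a secreted phospholipase, was at 8.52, 10.8, 13.2 and 13.1 TPM against 40.9, 26.9, 31.4 and 30.8 TPM (2.84-fold lower, log2 difference -1.43 ± 0.20, adjusted p = 3.17e-07). Arsg (chr11:109473374-109573330), a lysosomal sulfatase, was 2.60-fold lower, with 12.8 to 15.8 TPM in DRF ZT16 and 31.1 to 46.7 TPM in NRF ZT4. Its neighbour Wipi1, an autophagy gene on the other strand whose 3′ end abuts that of Arsg, fell 1.63-fold. The library protocol in the labels has no step that keeps strand, so reads past the end of either gene cannot be assigned with certainty. Pllp (chr8:94674894-94696278), a membrane proteolipid gene, fell 2.38-fold (log2 difference -1.23 ± 0.20, adjusted p = 4.26e-06) and Ell3 (chr2:121439010-121444278), an elongation factor gene, 2.48-fold (log2 difference -1.22 ± 0.20, adjusted p = 5.19e-06), each with no overlap. Socs2 (chr10:95385362-95417180), a suppressor of growth hormone signalling, was at 5.47, 10.7, 6.47 and 7.41 TPM against 22.3, 18.6, 11.0 and 26.2 TPM (log2 difference -1.24 ± 0.40, adjusted p = 0.0158), and Loxl4 (chr19:42593982-42612813), a lysyl oxidase of the matrix, at 8.95, 9.72, 6.01 and 9.67 TPM against 12.2, 25.9, 28.1 and 17.8 TPM (log2 difference -1.15 ± 0.37, adjusted p = 0.0149). The Socs2 call was lost without DRF ZT16 replicate 1 or NRF ZT4 replicate 4 (adjusted p = 0.0511 and 0.0566), and the Loxl4 call without DRF ZT16 replicate 3 or NRF ZT4 replicate 3 (adjusted p = 0.0549 and 0.0579).

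Interferon response genes were lower at DRF ZT16. These genes are switched on by interferons through STAT and IRF factors and serve antiviral defence. Of 30 tested, 13 fell and none rose (43.3% called, against 16.7% of all genes lower, median -0.54), and without rescaling 20 fell and none rose. Irf7 (chr7:141262706-141266481), the amplifier of the type I response, was at 13.1, 11.7, 11.0 and 12.0 TPM in DRF ZT16 and 25.5, 52.6, 48.3 and 45.7 TPM in NRF ZT4 (3.60-fold lower, log2 difference -1.72 ± 0.29, adjusted p = 1.20e-05). DRF ZT16 mice were close together, and NRF ZT4 replicate 1 was the lowest of its group while still above them. Irf7 also differed between NRF ZT0 (71.6 to 94.6 TPM) and NRF ZT24 (14.9 to 21.5 TPM), groups of the same regimen and clock time. What part such differences between groups of mice have in the fall was not tested. Igtp (chr11:58199556-58207591), an immunity-related GTPase, was at 49.5, 30, 35.5 and 51.4 TPM against 66.5, 109, 93.2 and 96.9 TPM (log2 difference -1.13 ± 0.40, adjusted p = 0.0278). Its call was lost without DRF ZT16 replicate 2 or 3 or NRF ZT4 replicate 2, 3 or 4 (adjusted p = 0.0531 to 0.0858). Oasl1, an oligoadenylate synthetase relative, fell from 5.24 to 9.77 to 2.75 to 3.61 TPM (log2 difference -1.0 ± 0.24, adjusted p = 0.00137). Outside the list, Tap1 (chr17:34187553-34197225), which loads peptides on MHC class I, was at 9.18, 7.35, 6.97 and 7.96 TPM against 16.1, 26, 20.6 and 19.9 TPM (log2 difference -1.28 ± 0.28, adjusted p = 3.74e-04), and Lgals3bp (chr11:118392751-118402092), a secreted glycoprotein, at 117, 111, 113 and 113 TPM against 208, 257, 317 and 246 TPM (log2 difference -1.15 ± 0.20, adjusted p = 1.46e-05). The 9 immune cell markers summed to 662 to 1003 TPM in DRF ZT16 and 1007 to 1417 TPM in NRF ZT4, most of it Cd74, and 2 of 7 tested were called lower. Cd74 itself is induced by interferon gamma. The part of immune cell RNA in the fall of these genes was not tested.

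Of 20 immediate early genes, which respond first to growth signals, 3 rose and 6 fell (45% called against 31.4% of all genes, median -0.18). Egr1, an early growth response factor, was at 6.03, 4.85, 3.99 and 4.03 TPM against 5.37, 13.8, 19.5 and 13.5 TPM (log2 difference -1.19 ± 0.39, adjusted p = 0.0159). The values overlapped through NRF ZT4 replicate 1, and the call was lost without NRF ZT4 replicate 3 (-0.97, adjusted p = 0.0754). Nr4a1, an orphan receptor of the same class, fell from 3.17 to 12.2 to 1.94 to 2.53 TPM (log2 difference -1.12 ± 0.28, adjusted p = 0.00159) and Fos by 0.94 ± 0.25, while Klf2 rose by 0.48 ± 0.12. Among 24 cell cycle genes 2 rose, Wee1 with the larger difference, and 7 fell (37.5% called, median -0.17), and without the 2 NRF ZT4 libraries that stood apart 1 rose and 4 fell. Cdkn2c, an inhibitor of cyclin-dependent kinases, fell from 13.7 to 16.8 to 8.86 to 9.10 TPM (log2 difference -0.71 ± 0.13, adjusted p = 3.11e-05). The proliferation marker Mki67 fell by 0.78 ± 0.26 at levels of 0.951 to 2.81 and 2.67 to 6.06 TPM, a call lost without DRF ZT16 replicate 3 (adjusted p = 0.121) or NRF ZT4 replicate 4 (adjusted p = 0.083).

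**Figure D4:**
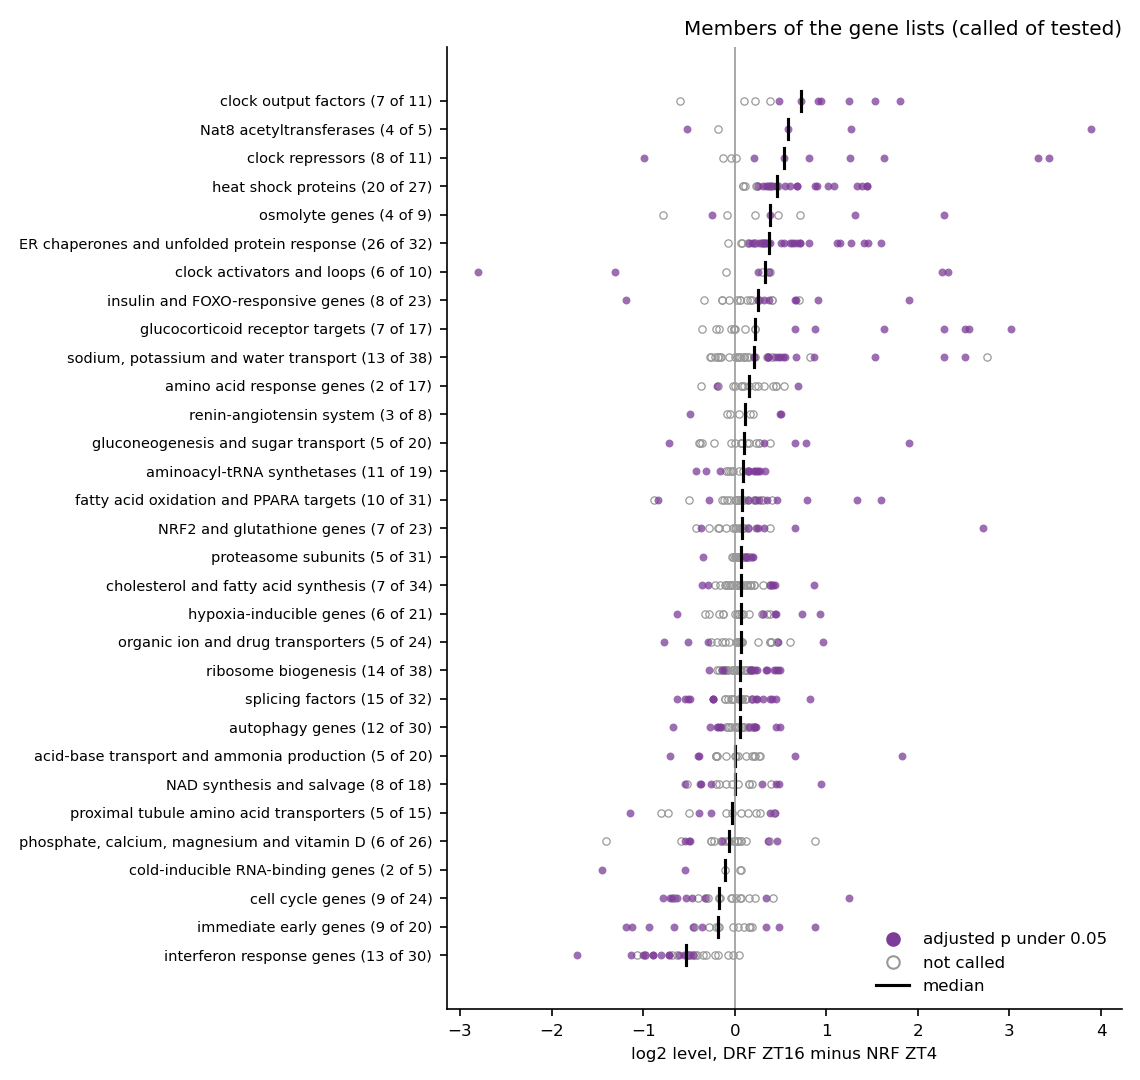
Difference between DRF ZT16 and NRF ZT4 (log2 scale) of each tested member of 31 gene lists, with filled points for called genes, open points for the rest and a bar for the list's median; the numbers beside each name are called and tested members. Clock output factors have the highest median (0.72) and interferon response genes the lowest (-0.54).

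Renal transport genes are given beside the markers of tubule segments. Of 38 genes for sodium, potassium and water transport, 13 rose and none fell (34.2% called against 31.4% of all genes, median 0.21). Without rescaling 10 rose and 4 fell, and without the 2 NRF ZT4 libraries that stood apart 8 rose and 1 fell. The 3 largest called rises were those of Tsc22d3, Sgk1 and Usp2 given above. The 4 thick ascending limb markers, 3 of which were called higher, summed to 7685 to 7970 TPM in DRF ZT16 and 5017 to 7145 TPM in NRF ZT4. Among them Slc12a1, the sodium-potassium-chloride cotransporter, was at 1792, 1538, 1434 and 1319 TPM against 566, 1015, 910.1 and 909 TPM. These groups did not overlap, and the lowest value was in NRF ZT4 replicate 1 (log2 difference 0.86 ± 0.29, adjusted p = 0.0179). How much of the rise of transport genes goes with the share of this segment was not tested. Aqp2, the vasopressin-regulated water channel of the collecting duct, was at 699.7, 369.6, 363 and 459.7 TPM against 212, 341, 409 and 535 TPM and was not called (interval -0.37 to 1.1). Of 9 osmolyte genes, which protect medullary cells from salt, 3 rose and 1 fell (44.4% called against 31.4% of all genes). Without rescaling 2 rose and 1 fell, and without the 2 NRF ZT4 libraries that stood apart 2 rose and none fell. Slc5a3, the myo-inositol transporter, was at 162, 131, 128 and 127 TPM against 37.9, 52.0, 58.2 and 75.2 TPM (2.45-fold, log2 difference 1.31 ± 0.33, adjusted p = 0.00174), and without NRF ZT4 replicates 1 and 4 the difference was 1.29 (adjusted p = 0.0139). The 5 inner medulla markers, none of which was called, summed to 210.1 to 500.4 TPM in DRF ZT16 and 42.3 to 500.4 TPM in NRF ZT4. Their part in the osmolyte genes was not tested.

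In the proximal tubule, the segment that reclaims most of the filtrate, Slc6a19 (chr13:73679745-73704865), the main transporter of neutral amino acids, was at 109, 161, 161 and 142 TPM in DRF ZT16 and 363, 217, 445 and 276 TPM in NRF ZT4 (2.27-fold lower, log2 difference -1.14 ± 0.26, adjusted p = 7.56e-04). Its neighbour on chromosome 13, Slc6a18, which carries glycine and other neutral amino acids, was called higher, at 801 to 899 against 451 to 777 TPM (log2 difference 0.44 ± 0.14, adjusted p = 0.0174), a call lost without DRF ZT16 replicate 4 (0.40, adjusted p = 0.0514) or NRF ZT4 replicate 1 (0.29, adjusted p = 0.127). In all, 2 of 15 amino acid transporters rose and 3 fell (median -0.03), and of 24 organic ion transporters 2 rose and 3 fell, or 33.3% and 20.8% called against 31.4% of all genes. Slc16a9, a carnitine and creatine carrier, rose from 124 to 137 to 247 to 276 TPM (log2 difference 0.96 ± 0.11, adjusted p = 8.58e-09), and Slc22a12, the urate transporter URAT1, fell from 1297 to 1599.9 to 661 to 1012 TPM (log2 difference -0.77 ± 0.13, adjusted p = 1.04e-05). Of 26 genes for phosphate, calcium, magnesium and vitamin D, 2 rose and 4 fell (23.1% called, median -0.06). Slc20a2, a phosphate transporter, fell from 34.3 to 37.6 to 25.0 to 26.6 TPM (log2 difference -0.49 ± 0.05, adjusted p = 5.94e-11). Vdr, the vitamin D receptor, fell by 0.50 ± 0.12, whereas Egf, made in the thick ascending limb and distal tubule, rose by 0.46 ± 0.12. In the renin-angiotensin list of 8 genes, Ace and Mme, peptidases that form and degrade angiotensins, rose by 0.50 ± 0.15 and 0.49 ± 0.12, and Agtr1a, the main angiotensin receptor, fell by 0.49 ± 0.12. The Ace call was lost without NRF ZT4 replicate 3 (0.34, adjusted p = 0.0832). Kap, an abundant proximal tubule transcript, ranged over 56524 to 94469 TPM and 32153 to 96591 TPM (interval -0.26 to 1.13) and was not called. Slc4a9, an anion exchanger of intercalated cells, fell 1.63-fold (log2 difference -0.70 ± 0.14, adjusted p = 1.35e-04).

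In the remaining 8 lists, 11.8% to 57.9% of the members were called against 31.4% of all genes. Of 21 hypoxia-inducible genes 5 rose and 1 fell, led by the collagen prolyl hydroxylase subunits P4ha2 (2.02-fold, log2 difference 0.93 ± 0.09, adjusted p = 2.39e-11) and P4ha1 (0.74 ± 0.11), with the fall in Pfkfb4, a regulator of glycolysis (-0.63 ± 0.10). Among 32 splicing factors 8 rose and 7 fell. Tra2a rose 1.80-fold and Hnrnpd fell 1.57-fold, both with no overlap. In autophagy 6 of 30 genes rose and 6 fell, with Atg3, which conjugates LC3 to lipid, rising by 0.50 ± 0.05. Of 38 ribosome biogenesis genes 11 rose and 3 fell, of 31 proteasome genes 4 rose and 1 fell, and of 19 aminoacyl-tRNA synthetases 8 rose and 3 fell. No list member named from these 3 exceeded 0.49 in absolute difference (Utp20). In NAD synthesis 4 of 18 genes rose, Nampt most, and 4 fell. Of 17 amino acid response genes 1 was called in each direction, and the rise was that of Sesn2, a stress-induced inhibitor of mTORC1 (0.69 ± 0.13). Medians of the aminoacyl-tRNA synthetase, autophagy, hypoxia, ribosome, proteasome and splicing lists lay between 0.06 and 0.09 and turned negative without rescaling, so no direction is given for them.

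To see whether the same dark minus light differences appeared when mice were fed, NRF ZT16 was compared with DRF ZT4, 8 mice that share no library with the early-fast groups and were 4 h into their meal. This comparison called 2358 genes (18.8%), of which 910 were higher in the dark. It shared 1137 calls with the early-fast comparison, 1027 in the same direction and 110 in the opposite one. The 1027 genes make up 26% of the early-fast calls and 43.6% of the early-meal calls. Across all genes the differences correlated with r = 0.352, a description over genes that are not independent replicates. Cry1 rose in the dark in both (3.32 ± 0.20 fasted and 2.01 fed), as did Nfil3 (2.27 and 1.51), Fkbp5 (2.55 and 1.74) and Angptl7 (2.54 and 1.72). Fabp7 and Ell3 fell by nearly the same amount in both (-1.64 and -1.58, and -1.22 and -1.13).

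The difference between the 2 comparisons was called in 1557 genes (12.4%), 1084 of them among the early-fast calls. It equals the summed difference of DRF from NRF at ZT16 and ZT4, so a gene shifted by the regimen at both times also shows it. Per2 had a smaller dark minus light difference when fed (1.17, difference of the differences 2.26, adjusted p = 4.98e-08). Hspa8 differed 1.39 when fasted and 0.14 when fed (adjusted p = 3.59e-05 for the difference), with DRF ZT4 and NRF ZT16 at 4378 ± 414 and 4804 ± 401 TPM and DRF ZT16 at 3894 ± 253 TPM. NRF ZT4, at 1491 ± 144 TPM, was the lowest of these 4 groups. Over all 12573 genes tested, 1846 were higher and 2105 lower in the early fast, against 910 and 1448 in the early meal. Lipid synthesis genes differed between the comparisons: 5 rose and 2 fell in the early fast, none rose and 14 of 34 fell in the early meal, and 13 were called for the difference. Cyp4a14 rose by 0.79 in the fast and fell by 1.25 in the meal (adjusted p = 7.28e-07). Its mean was higher under DRF than under NRF at both ZT4 (2160 and 1089.5 TPM) and ZT16 (1886 and 910.3 TPM), and at each other time sampled. Interferon response genes crossed over, with 13 of 30 lower in the early fast and 12 of 30 higher in the early meal (medians -0.54 and 0.56). The difference was called in 24 of the 30. Irf7 fell by 1.72 and rose by 1.24 (adjusted p = 1.01e-05). Its levels in the NRF ZT16 mice ranged from 18.5 to 78.7 TPM, and NRF ZT0 and NRF ZT24 differed as given above.

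**Figure D5:**
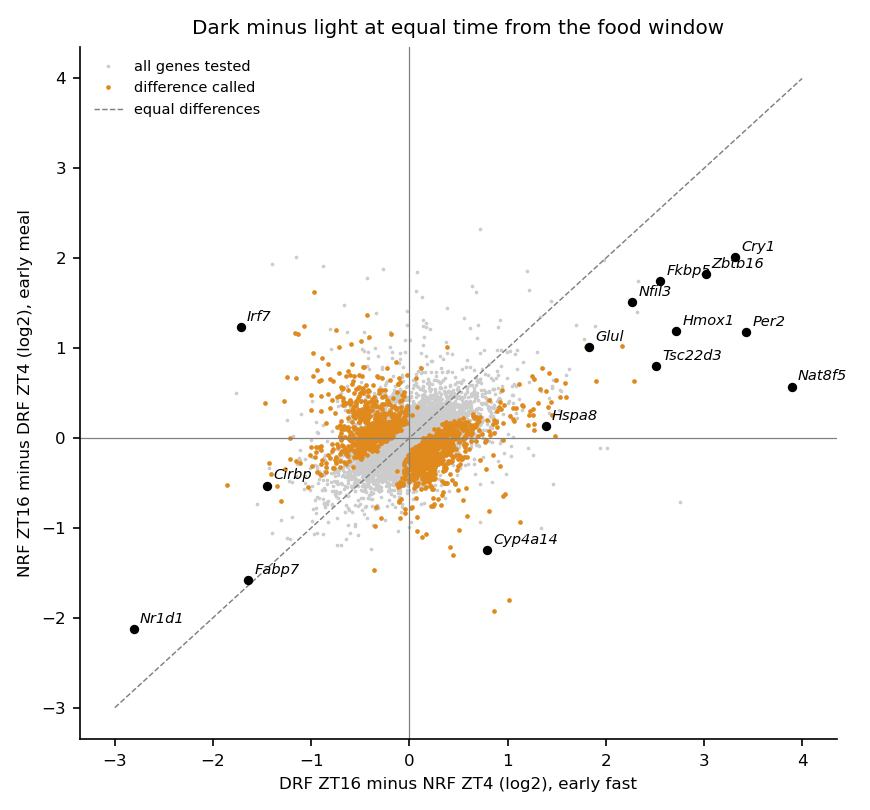
Dark minus light difference (log2) of each tested gene in the early fast (horizontal, DRF ZT16 minus NRF ZT4) and in the early meal (vertical, NRF ZT16 minus DRF ZT4), with the 1557 genes called for the difference between them in orange and a dashed line where both are equal. Irf7 lies at -1.72 and 1.24, and Fabp7 near the line at -1.64 and -1.58.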

How the data were processed

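Poly(A) RNA-seq of 56 kidneys was used, as 1 deposited table of 17027 genes. The authors called the values TPM, and the design of the tests assumed a linear scale. The deposited values behave instead as a score, log2(CPM + 1) divided by gene length and scaled to nearly equal sums (999145 to 999753). The submitters' processing notes name HISAT2, Bowtie2 and RSEM with GRCm38.p6 and mm10, without versions. Whole reads were recovered for 92.9% of genes, and in these 98.3% of values above 0 lay within 0.1 of a whole read. The other genes were left out, except Nr1d1, Dbp and Kap, kept at an assumed length. Depth was 22.2 to 24.6 M reads per library. The recovered TPM were multiplied by median-of-ratios factors, and genes with a mean of at least 1 TPM were tested.

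Tests were contrasts of 1 limma 3.58.1 fit (R 4.3.3, mean-variance trend, all 14 groups) on log2(TPM + 1), 2-sided, with Benjamini-Hochberg adjustment over all genes tested. A pseudocount of 1 understates changes of low genes. The code was tested on simulated data. Gene lists, members and tests were chosen with earlier results of these data known. Genes are named if they are among the 14 largest rises or falls (mean of at least 10 TPM over the 8 samples, no overlap, called with and without rescaling), belong to the clock lists, are 1 of 13 genes taken whatever their result (Acot1 was not among those tested), or lead their list. Some of these genes are not reported here. Samples with the same replicate number did not deviate together (correlations -0.44 to 0.095), so numbers were not taken as pairs. Promoters and gene positions are from RefSeq and GENCODE on GRCm38.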

Additional observations from a re-analysis of the deposited data

Results flagged for a closer look

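In 16 of 312 groups of 4 mice among the named genes (5.13%), 1 mouse stood apart, with a gap to its nearest neighbour that exceeded Dixon's 95% limit as a share of the group's range. Chance gives about 1 in 20. In DRF ZT16 this share of the range was 0.844 for Cry2, 0.851 for Ciart, 0.873 for Fbxl21, 0.837 for Creld2, 0.895 for Slc5a3, 0.832 for Rhbg and 0.83 for Pfkfb4. In NRF ZT4 it was 0.849 for Wee1, 0.943 for Cpt1a, 0.886 for Cyp4a14, 0.873 for Cyp4b1, 0.92 for Msmo1, 0.929 for Manf, 0.95 for Vdr, 0.836 for Car12 and 0.84 for Mme. Slc5a3 in DRF ZT16 replicate 1 was at 162 TPM against 127 to 131 TPM in the others. Vdr and Car12 were highest in NRF ZT4 replicate 1, the library that nearly lacked Slc14a2.

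For 62 of 156 named genes the dark minus light difference differed between the early fast and the early meal by the limma test of that difference (41 positive and 21 negative as early fast minus early meal, highest adjusted p = 0.0435). Over all genes 12.4% were called. Many named genes were chosen for a large early-fast difference, which is itself part of the difference tested. The share and the signs are therefore a description. The values that follow are early fast minus early meal on the log2 scale. Among clock genes they were 2.26 for Per2, 1.30 for Cry1, 0.93 for Per3, 1.23 for Ciart, -0.67 for Fbxl21, 0.56 for Tef, 0.56 for Wee1, 1.08 for Usp2, 0.41 for Nampt and 0.79 for Lonrf3. In the Nat8 family they were 3.32 for Nat8f5, 1.18 for Nat8 and 1.13 for Nat8f1. Hormone-responsive and stress genes had 1.53 for Hmox1, 1.71 for Tsc22d3 and 1.65 for Sgk1. Chaperones had 1.25 for Hspa8, 1.04 for Chordc1, 1.13 for Creld2, 1.19 for Manf and 1.06 for Hspa5, against -0.92 for Cirbp and -0.37 for Srsf5. Immune genes had -2.95 for Irf7, -1.69 for Tap1, -1.82 for Lgals3bp, -2.29 for Igtp and -1.48 for Oasl1.

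In lipid metabolism the values were 2.04 for Cyp4a14, 1.74 for Msmo1, 0.67 for Hmgcs1 and 0.61 for Dhcr7. Glucose, nitrogen and transport genes had 1.27 for G6pc, 0.81 for Slc37a4, 0.82 for Glul, 0.59 for Slc16a9, 0.47 for Slc17a1, -0.27 for Slc20a2 and -0.73 for Slc4a9. Genes of RNA and protein turnover had -0.37 for Lars, 0.80 for Utp20, 0.30 for Nolc1, 0.42 for Nop2, -0.36 for Wdr43, 0.27 for Psmd14, 0.31 for Psmb7, 0.23 for Psmd12, 0.36 for Atg3, -0.58 for Wipi1, -0.43 for Atg2a, 0.79 for Tra2a, 0.41 for Hnrnpm, -0.45 for Hnrnpd and -0.51 for Hnrnpdl. The others were 1.14 for Muc19, -1.15 for Pla2g5, -0.61 for Arsg, -1.92 for Socs2, 0.61 for P4ha2, -1.20 for Mki67, -0.85 for Cdkn2c and 0.57 for Ido2. Irf7 and Cyp4a14 were among the genes called in opposite directions in the 2 comparisons.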

How the results depend on the processing

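Counts of called genes were recomputed under other settings, with single libraries of DRF ZT16 and NRF ZT4 left out for the count of that comparison and 1 replicate of every group for all counts. For DRF ZT16 against NRF ZT4, 3951 genes became 2502 in a fit of the 8 samples alone and 620 at 1.5-fold or more, and 2704 to 4147 with libraries left out. The NRF ZT16 against DRF ZT4 count of 2358 became 352 in its 8 samples alone, 288 at 1.5-fold or more and 555 to 2887 with libraries left out, with 555 without replicate 3 and 754 without replicate 2 of every group. The difference of the comparisons, 1557 genes, became 557 in a fit of 16 samples, 426 at 1.5-fold or more, 813 without the 2 NRF ZT4 libraries that stood apart (an alternative chosen after seeing the data) and 428 to 1141 with libraries left out. Those counts were 428 without replicate 3, 950 without replicate 1 and 890.0 without replicate 4 of every group. Food-state genes called, 105 in the report, numbered 1424 in the values as deposited, 163 with a pseudocount of 0.1, 42 with a pseudocount of 5, 165 with voom weights and 70 to 108 with libraries left out. Clock-time genes called, 125, numbered 1147 in the values as deposited, 79 with a pseudocount of 5 and 96 to 120.0 with libraries left out. In the values as deposited no fold minimum was applied to define these classes, which there held 3503 food-state and 2764 clock-time genes. In the other settings the 1.5-fold minimum is taken on each scale's own units, so the classes differ in size. With the replicate number as a block, the counts were 3946, 2327, 1567, 106 and 126, and the block changed no call of a named gene. Of 156 named genes, none reversed under any setting and 95 kept direction and call under all. In all, 314 values of named genes lost the call and 13 gained it. Depth and 4 mice per group limit genes of high spread, such as Pdk4 and Dbp, in which a 1.5-fold change lies within the interval.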
